A study of Mus musculus with 6 samples.

Results

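The genes of the mitochondrial respiratory chain were described in RNA-seq of whole thyroid glands from female mice. They were the rows of the count data whose symbol starts with Nduf, Uqcr, Cox4, Cox5, Cox6, Cox7, Cox8 or Atp5, together with Sdha, Sdhb, Sdhc, Sdhd and Cycs. This gave 93 of 21878 genes: 45 with a complex I symbol, of which 7 encode core subunits, 31 accessory subunits and 7 assembly factors, 4 of complex II, 8 of complex III, Cycs for cytochrome c, 18 of complex IV and 17 with an ATP synthase (complex V) symbol. The study compared 3 mice carrying a thyroid-specific Tet1 deletion (Thy-Tet1-/-) with 3 wild-type littermates (Thy-Tet1+/+), all 12 weeks old. The sample titles call these groups treatment and control, and the paper describes no drug treatment of these mice. TET1 is an enzyme that oxidises 5-methylcytosine in CpG dinucleotides. The deletion is specific to the thyroid by its label, while the RNA came from the gland with everything dissected along with it. Genes encoded by mitochondrial DNA were not analysed here.

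Total counts were between 8867683 and 19950898 per library, the lowest being Thy-Tet1+/+ 1, and a level of 3 counts was 0.15 to 0.338 CPM (counts scaled to library totals with edgeR's TMM factors). Tet1 RNA went against its label. It had 5.69, 3.79 and 3.44 CPM in the Thy-Tet1+/+ libraries and 9.36, 9.59 and 12.2 CPM in the libraries labelled Thy-Tet1-/- (log2 fold change 1.28 ± 0.27 SE, edgeR adjusted p = 0.101), and counts per gene do not show which exons they came from. The paper reported less TET1 protein by immunostaining, and less hydroxymethylcytosine, in thyroids of Thy-Tet1-/- mice. Counts of RNA per gene do not measure either. The groups are given by label throughout. Calls between them used the limits of the study's legend, a difference of more than 1.5-fold with an unadjusted p below 0.05, and p-values adjusted over all genes tested (Benjamini-Hochberg) are given beside them. At these limits 5.54% of the 14143 genes tested were higher in the libraries labelled Thy-Tet1-/- and 3.66% were lower. Genes of neighbouring tissues differed widely between the libraries. Together, 10 skeletal muscle genes reached 7609, 934 and 4843 CPM in the 3 controls, and 112, 8391 and 19 CPM in the libraries labelled Thy-Tet1-/-, with 0 of the 10 past the limits. The 6 brown adipocyte genes summed to 198, 78.4 and 96.1 CPM against 532, 233 and 119 CPM, with 1 of the 6, Ucp1, past the limits. In both lists every gene had counts in at least 1 library. The 10 follicular cell genes summed to 257012 to 316932 CPM in the Thy-Tet1+/+ libraries and to 193923 to 239773 CPM in those labelled Thy-Tet1-/-, without overlap. Nearly all of that sum was thyroglobulin (Tg, 252509 to 313433 and 190750 to 236350 CPM), and the list did not move one way: 4 of its 10 log2 fold changes were above 0, 1 gene was higher at the limits (Nkx2-1) and 3 were lower (Tshr, Iyd and Dio1). In such bulk samples, fewer cells of a type and less RNA per cell cannot be told apart.

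The respiratory chain passes electrons from NADH (complex I) and succinate (complex II) through complex III and cytochrome c to oxygen at complex IV, and complex V uses the resulting proton gradient to make ATP. Most of its nuclear genes are active in every cell and carry CpG-rich promoters, many with sites for the transcription factors NRF1 and GABP. Complex IV also has tissue forms. COX6A2 replaces COX6A1 in heart and skeletal muscle, whereas COX7A1 and COX8B replace COX7A2 and COX8A in those muscles and in brown fat. In thyroid follicular cells mitochondria supply the ATP for iodide uptake and hormone synthesis.

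Promoter sequences came from RefSeq (build GRCm38.p6), which held 77 of the 93 genes. In the 250 bases before the start of transcription, CpG dinucleotides numbered a median of 15 (range, 1 to 35), against a median of 6 in all 27025 promoters of the same length. The letters CGCANGCG, the core of an NRF1 site, stood on either strand in 19 of 77 promoters (24.7%), against 6.94% of all promoters. CCGGAAG, the core of the ETS sites that GABP binds, stood in 12 (15.6%, against 7.05%). TATAAA and CAGCTG (an E-box) each stood in 6 (7.79%), against 13% and 12.8% of all promoters. The first and second motifs contain CpG themselves, so their shares are not independent of the CpG count. The 2 muscle and fat isoforms with an entry stood at the CpG-poor end: Cox8b, with 1 CpG, had the fewest of the 77, and Cox7a1 had 4, as did Ndufc2. Their counterparts expressed in all tissues, Cox8a and Cox7a2, had 11 and 14. These 4 promoters are shown because the largest fold changes below belong to the isoforms, with that of Atp5sl, the gene with the smallest p, and of Cycs, a gene with an NRF1 match. Capitals mark each CpG, and the sequences run 5′ to 3′ up to the base before the start.
Cox8b, chr7:140900447-140900696, minus strand: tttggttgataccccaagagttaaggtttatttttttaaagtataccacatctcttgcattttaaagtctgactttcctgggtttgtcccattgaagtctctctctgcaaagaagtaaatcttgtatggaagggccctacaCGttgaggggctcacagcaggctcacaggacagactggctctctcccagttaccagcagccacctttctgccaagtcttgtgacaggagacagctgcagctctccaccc
Cox8a, chr19:7217617-7217866, minus strand: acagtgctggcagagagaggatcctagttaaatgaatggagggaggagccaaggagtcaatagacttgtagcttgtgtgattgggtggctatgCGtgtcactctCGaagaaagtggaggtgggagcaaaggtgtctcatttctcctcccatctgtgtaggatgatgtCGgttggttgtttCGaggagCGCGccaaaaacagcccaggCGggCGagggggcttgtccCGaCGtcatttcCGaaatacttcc
Cox7a1, chr7:30183921-30184170, plus strand: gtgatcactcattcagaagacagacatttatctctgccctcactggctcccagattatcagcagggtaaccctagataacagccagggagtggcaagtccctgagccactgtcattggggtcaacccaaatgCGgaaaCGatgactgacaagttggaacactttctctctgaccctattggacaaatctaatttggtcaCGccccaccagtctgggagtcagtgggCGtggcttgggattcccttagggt
Cox7a2, chr9:79759854-79760103, minus strand: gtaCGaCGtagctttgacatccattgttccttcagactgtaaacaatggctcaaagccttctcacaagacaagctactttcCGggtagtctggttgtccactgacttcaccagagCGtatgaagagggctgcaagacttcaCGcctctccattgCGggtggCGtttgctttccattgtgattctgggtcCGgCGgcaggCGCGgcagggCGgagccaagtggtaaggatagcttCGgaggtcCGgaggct
Atp5sl, chr7:25619164-25619413, plus strand: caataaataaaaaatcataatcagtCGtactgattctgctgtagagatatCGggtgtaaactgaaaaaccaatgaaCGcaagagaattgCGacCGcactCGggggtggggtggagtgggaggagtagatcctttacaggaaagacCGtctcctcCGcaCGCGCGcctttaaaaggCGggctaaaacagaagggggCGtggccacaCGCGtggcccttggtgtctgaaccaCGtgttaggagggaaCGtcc
Cycs, chr6:50566570-50566819, minus strand: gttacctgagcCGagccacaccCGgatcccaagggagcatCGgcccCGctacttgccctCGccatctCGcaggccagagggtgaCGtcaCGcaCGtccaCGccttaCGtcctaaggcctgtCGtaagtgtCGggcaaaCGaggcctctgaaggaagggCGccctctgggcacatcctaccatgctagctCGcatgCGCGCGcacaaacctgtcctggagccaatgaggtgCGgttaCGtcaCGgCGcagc
The Cox8b window held CAGCTG and none of the other 3 motifs, and the windows of Cox8a, Cox7a1 and Cox7a2 held none of the 4. Atp5sl and Cycs held 17 and 23 CpG and a CGCANGCG match each, whose first base lay 96 and 61 bases before the start. A match in letters is a description and does not show binding, and methylation was not measured in these libraries.

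Of the 93 genes, 91 had enough counts to be tested. Cox7b2 had 0 counts in every library, which allows up to 0.15 to 0.338 CPM of the plain library total. Cox8c had counts in 1 library (0.118 CPM in Thy-Tet1-/- 2). At the study's limits 2 of the 91 genes were higher in the libraries labelled Thy-Tet1-/-, Atp5sl and Cox8b, against 5.54% of the 14143 genes tested. At the same limits 0 were lower, against 3.66% of all genes. With an adjusted p under 0.05 there were 0 by edgeR (0.113% of all genes). DESeq2 gave 1, Atp5sl, and its share of all genes at that limit is not given here, so this count has nothing to stand beside. With an unadjusted p under 0.05 there were 2 by edgeR, against 18.9% of all genes. The groups did not overlap for 2 higher genes, Atp5sl and Ndufa4l2, against 12.5% of all genes, and for 2 lower genes, Ndufa13 and Cox4i2, against 14.3%.

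The fold changes were small for nearly all members. In 84 of 91 genes the log2 fold change lay between -0.2 and 0.4, beside a median SE of 0.23, and the full range ran from -0.64 (Cox4i2) to 1.81 (Cox8b). The median was 0.12, against 0.00 over all genes tested, and 69 of 91 values were above 0, against 50.1% of all genes. This lean depended on single libraries. Without Thy-Tet1+/+ 1 the median was -0.02 and 41 values were above 0, and without Thy-Tet1-/- 1 it was -0.05 and 34 were above 0. It depended on the scaling as well: with plain library totals 87 values were above 0 and the median was 0.30, but the median over all genes was then 0.19. With scaling to 10 epithelial genes, 90 were above 0, with a median of 0.51 beside 0.37 over all genes. Summed over the 93 genes, the 3 controls reached 8796, 9524 and 11895 CPM, while those labelled Thy-Tet1-/- reached 12635, 11378 and 8196 CPM. Both the highest and the lowest sums thus carried the Thy-Tet1-/- label, and the ratio of means was 1.07.

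**Figure D1:**
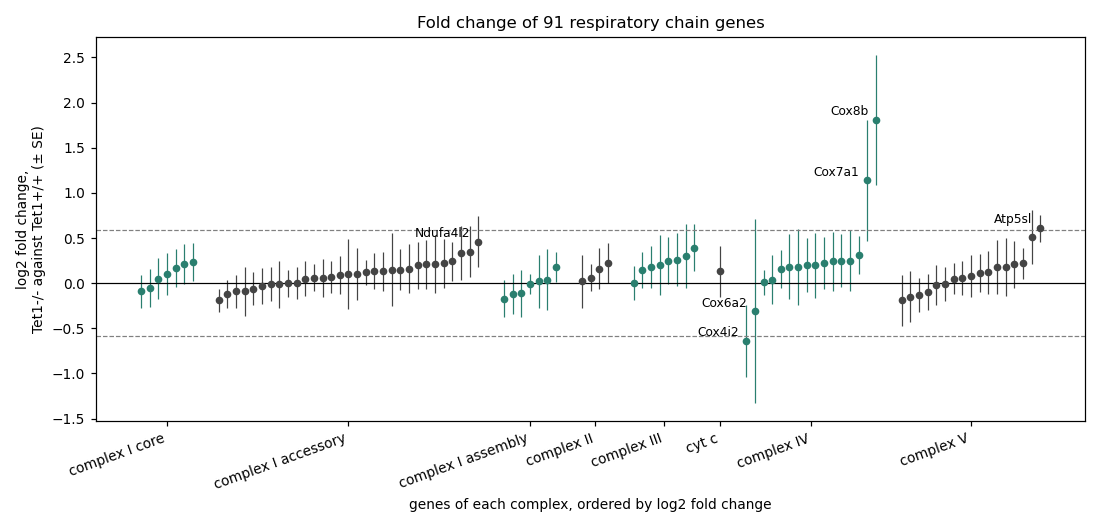
Log2 fold change (libraries labelled Thy-Tet1-/- against Thy-Tet1+/+, edgeR) of the 91 tested genes, ordered within each complex, where bars show SE and dashed lines a difference of 1.5-fold. In 76 of 91 genes the value is within 1 SE of 0, and Cox8b (1.81), Cox7a1 (1.14) and Atp5sl (0.61) are the 3 genes above the upper line.

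Complex I, the NADH dehydrogenase, held 45 of the genes, of which 0 passed the study's limits. The 7 core subunits, which carry the flavin and the iron-sulphur clusters, had a median log2 fold change of 0.10, with Ndufv2 lowest at -0.09. Ndufv1, the flavin-binding NADH site and the core gene with the highest level per kilobase (84.6 CPM per kb of the longest transcript), had 158, 120 and 136 CPM in the Thy-Tet1+/+ libraries and 176, 155 and 98.9 CPM in those labelled Thy-Tet1-/-. Its highest and lowest values both came from libraries labelled Thy-Tet1-/-. Among the 31 accessory subunits 23 values were above 0 and 8 below, with a median of 0.10. Ndufa1, a small membrane subunit, was highest per kilobase (243 CPM per kb) and had 48.5, 103 and 144 CPM against 134, 103 and 79.8 CPM (log2 fold change 0.10 ± 0.39 SE). The 7 assembly factors, which build complex I and are not part of it, ranged from -0.17 (Ndufaf3) to 0.18 (Ndufaf1). Ndufaf7, a methyltransferase of complex I assembly, was the steadiest of all 91 genes, at 22.8, 21.7 and 24.1 CPM against 23.5, 21.8 and 23 CPM.

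The groups of 2 complex I genes were separate by small margins. Ndufa13 (also known as GRIM-19, a membrane-arm subunit) had 153, 154 and 159 CPM in the Thy-Tet1+/+ libraries and 150, 145 and 114 CPM in those labelled Thy-Tet1-/- (log2 fold change -0.19 ± 0.13 SE, adjusted p = 0.49). The gap between the groups was small beside the spread within the second. Its exons overlap those of Tssk6 on the opposite strand by 375 bp, and no source used here says if strand was considered in counting. Ndufa4 and Ndufa4l2 carry complex I symbols, although Ndufa4 is now counted with complex IV, and Ndufa4l2 is its hypoxia-induced relative. Ndufa4l2 was low, with 2.49, 3.53 and 3.1 CPM against 4.74, 3.97 and 3.91 CPM (log2 fold change 0.46 ± 0.28 SE, adjusted p = 0.427), higher without overlap. Ndufa4 had 103, 155 and 185 CPM against 197, 180 and 119 CPM. Per length, Ndufa4l2 made up 2.04 to 2.9% of the pair in the Thy-Tet1+/+ libraries and 2.66 to 3.93% in those labelled Thy-Tet1-/-. With the median in place of the longest transcript length these shares were 0.834 to 1.19% and 1.09 to 1.63%.

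Complex II, succinate dehydrogenase, also belongs to the citric acid cycle, and all of its 4 subunits are nuclear. Sdha, the flavoprotein, had 500, 310 and 404 CPM in the Thy-Tet1+/+ libraries and 534, 433 and 266 CPM in those labelled Thy-Tet1-/- (log2 fold change 0.02 ± 0.29 SE). Sdhb, the iron-sulphur subunit, had 105, 81.7 and 103 CPM against 139, 117 and 79.6 CPM (0.22 ± 0.22 SE). In both genes the lowest value of all 6 libraries was in Thy-Tet1-/- 3 and the highest in Thy-Tet1-/- 1. The membrane anchors followed the same order within that group: Sdhc had 138, 156 and 185 CPM against 178, 176 and 146 CPM, and Sdhd had 81.6, 98.9 and 114 CPM against 138, 114 and 77.6 CPM. Adjusted p-values of the 4 genes were 0.645 or higher.

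Complex III, the cytochrome bc1 complex, had all 8 log2 fold changes at or above 0.00, from 0.00 (Uqcrh) to 0.39 (Uqcrfs1), with a median of 0.23 and 0 genes past the limits. Uqcrfs1, the Rieske iron-sulphur protein, had 75.9, 96.2 and 127 CPM in the Thy-Tet1+/+ libraries and 164, 136 and 92 CPM in those labelled Thy-Tet1-/- (0.39 ± 0.26 SE, adjusted p = 0.472). Uqcrh, the hinge protein and the highest of the complex per kilobase (200 CPM per kb), had 146, 140 and 193 CPM against 186, 163 and 131 CPM. In both genes the control Thy-Tet1+/+ 3 lay above Thy-Tet1-/- 3. Cycs, the soluble carrier between complexes III and IV, had 48.5, 51.7 and 74.9 CPM against 79.4, 72.2 and 40.9 CPM (0.13 ± 0.28 SE). Its transcript shares 28.5% of its 50-base stretches with other annotated genes, 10 of them pseudogenes, so part of its count is uncertain.

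Complex IV, cytochrome c oxidase, had the widest range of fold changes of the 5 complexes, from -0.64 to 1.81. Its 11 subunit genes other than Cox4i2, Cox6a2, Cox7a1, Cox8b and Cox6b2 had log2 fold changes from 0.01 (Cox7a2l) to 0.31 (Cox5b). Cox4i1, a regulatory subunit, was highest per kilobase (449 CPM per kb), with 258, 312 and 403 CPM in the Thy-Tet1+/+ libraries and 422, 370 and 295 CPM in those labelled Thy-Tet1-/- (0.16 ± 0.21 SE). Cox7a2l, a factor of supercomplexes of III and IV, did not share the spread of its relatives: it had 159, 128 and 117 CPM against 136, 135 and 135 CPM. Cox6b1 had 86.2, 174 and 211 CPM against 230, 185 and 144 CPM, while its testis form Cox6b2 had 2.13 to 6.57 CPM in the Thy-Tet1+/+ libraries and 5.15 to 5.79 CPM in the others. Cox7b, which has Cox7b2 as its testis form, had 74.8, 123 and 168 CPM against 170, 140 and 110 CPM. In Cox6b1 and Cox7b Thy-Tet1+/+ 1 was the lowest library and the highest was Thy-Tet1-/- 1. Cox4i2, a form known from lung and hypoxia, was low, with 1.66, 1.76 and 1.61 CPM against 1.2, 1.36 and 0.66 CPM (-0.64 ± 0.40 SE, adjusted p = 0.435). It was lower without overlap and fell short of the study's limits because its unadjusted p was 0.16.

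The muscle and fat forms of complex IV had the widest spread of all 91 genes, from 5.88-fold to 14-fold between the highest and the lowest library, while every other member stayed within 3.08-fold. Cox8b had 10.8, 7.27 and 24.6 CPM in the Thy-Tet1+/+ libraries and 82.5, 55.6 and 12.7 CPM in those labelled Thy-Tet1-/-. Its 2 high libraries were Thy-Tet1-/- 1 and 2, and Thy-Tet1-/- 3 lay within the control range. The log2 fold change was 1.81 ± 0.72 SE (adjusted p = 0.243), and an exact two-sided permutation test over the 6 libraries gave p = 0.2. It no longer passed the limits without Thy-Tet1+/+ 1 (1.65) or 2 (1.49) or without Thy-Tet1-/- 1 (1.24) or 2 (1.74), nor by limma-voom (1.59). Cox7a1 had the same 2 high libraries, with 9.25, 6.84 and 20.7 CPM against 40.2, 33.9 and 7.36 CPM (1.14 ± 0.67 SE, adjusted p = 0.406), and it passed the limits without Thy-Tet1-/- 3 (1.59). Cox6a2 had another order, with 21.3, 6.63 and 40.3 CPM against 7.19, 44.8 and 3.2 CPM (-0.31 ± 1.02 SE, adjusted p = 0.906). It was high in Thy-Tet1+/+ 1, Thy-Tet1+/+ 3 and Thy-Tet1-/- 2, and its sign changed under 5 of 18 alternatives. Without Thy-Tet1-/- 2 its value was -2.13, past the limits.

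**Figure D2:**
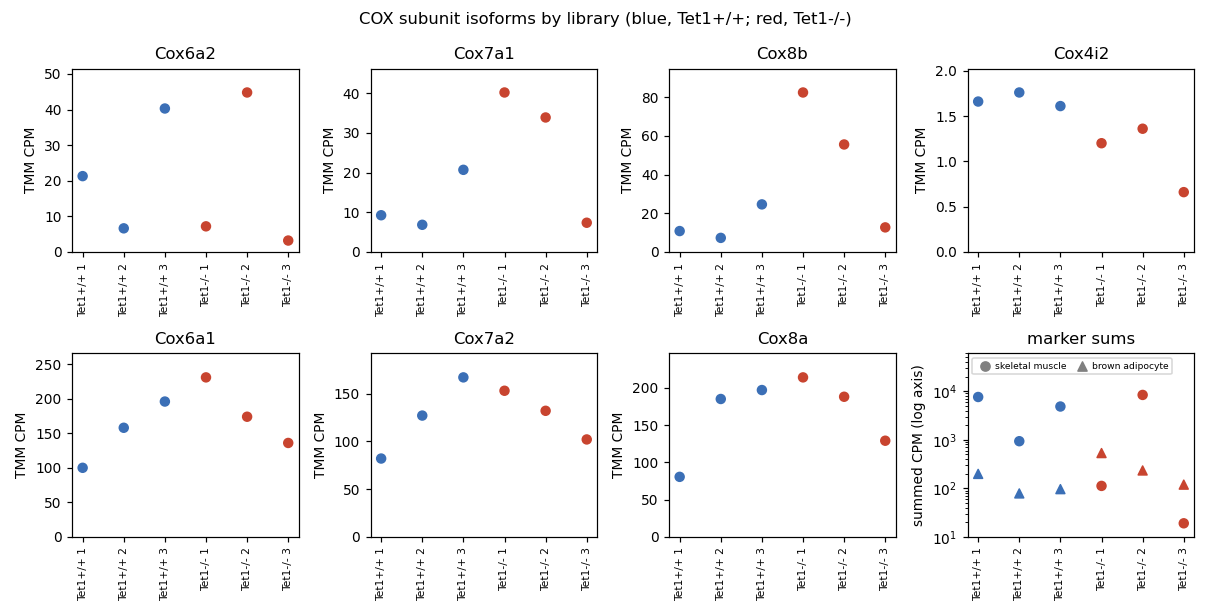
TMM-scaled CPM of 7 complex IV isoform genes in each library, and the summed CPM of the skeletal muscle list (circles) and the brown adipocyte list (triangles) on a log axis. Cox6a2 is high in the 3 libraries with muscle sums of 4843 to 8391 CPM, whereas Cox7a1 and Cox8b are highest in Thy-Tet1-/- 1 and 2, which have the 2 highest brown adipocyte sums (532 and 233 CPM).

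Shares within an isoform pair do not depend on how the libraries are scaled. Per length of the longest transcript, Cox8b made up 17, 5.68 and 16% of Cox8a and Cox8b for the 3 controls, against 37, 31.1 and 13.1% for those labelled Thy-Tet1-/-. Cox7a1 made up 13.3, 6.8 and 14.4% of its pair with Cox7a2 against 26.3, 25.9 and 8.91%. In both pairs Thy-Tet1-/- 3 lay among the controls. Cox6a2 made up 16.2, 3.69 and 15.8% of its pair with Cox6a1 against 2.76, 19 and 2.11%. The forms found in all tissues thus supplied most of each pair in every library. They had 100, 158 and 196 against 231, 174 and 136 CPM for Cox6a1, 82, 127 and 167 against 153, 132 and 102 CPM for Cox7a2, and 80.5, 185 and 197 against 214, 188 and 129 CPM for Cox8a. All 3 had their lowest value in Thy-Tet1+/+ 1. Of these 6 genes, 4 shared no 50-base stretch with another annotated gene, and Cox6a2 and Cox6a1 shared 3.33% and 7.18% of theirs.

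The tissue markers moved with these isoforms only in part. Cox6a2 was above 20 CPM in the 3 libraries with the highest muscle sums and below 8 CPM in the other 3. With the muscle score as a covariate its log2 fold change was 0.66, while Cox8b stayed past the limits. Ucp1, the uncoupling protein that defines brown fat, had 60.3, 9.62 and 8.09 CPM in the Thy-Tet1+/+ libraries and 323, 110 and 37.2 CPM in those labelled Thy-Tet1-/- (2.62 ± 1.05 SE, adjusted p = 0.244). Thy-Tet1-/- 1 and 2 had the 2 highest values of Ucp1, Cox7a1 and Cox8b. The orders differed further down, since Thy-Tet1+/+ 3 came next for Cox8b and Cox7a1 but was lowest for Ucp1. Of the 5 brown adipocyte genes tested, 4 had log2 fold changes above 0. Ppargc1a went the other way, with 92.5, 62.9 and 82.4 CPM against 69.5, 69.1 and 61.9 CPM (-0.24 ± 0.16 SE). Elovl3 was as high in Thy-Tet1+/+ 1 (1.9 CPM) as in Thy-Tet1-/- 1 (1.91 CPM). With the brown adipocyte score as a covariate, an alternative added after the data had been seen, the log2 fold change of Cox8b was 1.05 (adjusted p = 0.713, against a range of 0.137 to 0.713 over its 18 alternatives). Whether the isoform RNA came from those tissues was not tested.

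Complex V, the ATP synthase, included the gene with the highest level per kilobase of the chain. Atp5b, the catalytic beta subunit, had 494 CPM per kb, with 880, 845 and 1005 CPM in the Thy-Tet1+/+ libraries and 1167, 1074 and 705 CPM in those labelled Thy-Tet1-/- (0.11 ± 0.21 SE). Its partner Atp5a1 had 1072, 811 and 975 against 971, 958 and 689 CPM. Both were lowest in Thy-Tet1-/- 3. The ring of c subunits is encoded by 3 genes with the same mature protein, of which Atp5g3 supplied 67.4 to 72.8% per length, Atp5g2 23.2 to 28.5% and Atp5g1 3.09 to 4.17% (4.79 to 6.44% with the median transcript length). Their levels were 124, 205 and 273 against 197, 191 and 153 CPM for Atp5g3, 44.2, 74.5 and 75.9 against 66, 70.6 and 55.8 CPM for Atp5g2, and 41.4, 52.3 and 81.1 against 47.5, 64.8 and 41.5 CPM for Atp5g1. Their log2 fold changes were -0.15, -0.02 and -0.19. Of the 17 genes with an Atp5 symbol, 11 had values above 0 and 1 passed the limits.

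That gene was Atp5sl, whose symbol refers to a likeness to the ATP synthase gene Atp5s. It is now named Dmac2 and is known as an assembly factor of the distal membrane arm of complex I. Atp5sl had 17.8, 22 and 19.7 CPM in the Thy-Tet1+/+ libraries and 35, 28.7 and 27.4 CPM in those labelled Thy-Tet1-/-, so that all 3 of the latter lay above all 3 controls. The log2 fold change was 0.61 ± 0.15 SE with an edgeR adjusted p of 0.117, and the exact two-sided permutation test over 3 against 3 libraries gave its smallest possible p, 0.1. Over 18 alternatives the log2 fold change ran from 0.47 to 1.0 and the adjusted p from 0.0223 to 0.388. Without Thy-Tet1-/- 1 the value was 0.47 and without Thy-Tet1+/+ 1 it was 0.54, both under the fold limit, as were the values by limma-voom (0.58) and with the muscle score as a covariate (0.57). Atp5s (now Dmac2l), a factor that couples the synthase, had 5.93, 7.64 and 12.3 against 12.1, 10.9 and 14.1 CPM (0.51 ± 0.30 SE, adjusted p = 0.401). The groups of Atp5s overlapped. It passed the limits without Thy-Tet1+/+ 3 (0.86), under epithelial scaling (0.89) and with the brown adipocyte score as a covariate (0.94), where Atp5sl and Atp5s were the 2 genes past the limits and Cox8b was not. The Atp5sl gene lies at chr7:25619414-25625550 (GRCm38.p6), shares no 50-base stretch with other annotated genes and overlaps no other gene's exons.

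The respiratory chain genes as a group differed between mice of the same label. Each gene's log2 CPM was set against its mean over the 6 libraries, and the 91 genes had median deviations of -0.32, -0.07 and 0.26 for the 3 controls, against 0.32, 0.15 and -0.28 for those labelled Thy-Tet1-/-. Over all genes tested these medians lay between -0.02 and 0.02. The highest library was Thy-Tet1-/- 1 for 53 genes (58.2%, against 13% of all genes) and Thy-Tet1+/+ 3 for 27 (29.7%, against 17.2%). The lowest was Thy-Tet1+/+ 1 for 50 genes (54.9%, against 23.1%) and Thy-Tet1-/- 3 for 35 (38.5%, against 17.2%). Within the Thy-Tet1-/- label, library 1 exceeded library 3 for 89 of 91 genes (97.8%, against 47.3% of all genes), with a median difference of 0.63 on the log2 scale. Library 2 exceeded library 3 for 86 (94.5%, against 50.2%). Within the controls, library 3 exceeded library 2 for 85 (93.4%, against 53.4%). In 25 of 91 genes the libraries labelled Thy-Tet1-/- held both the highest and the lowest value of all 6 (27.5%, against 10% of all genes). The libraries differ from each other in many ways, and members are not independent of each other, so these are counts without a test.

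**Figure D3:**
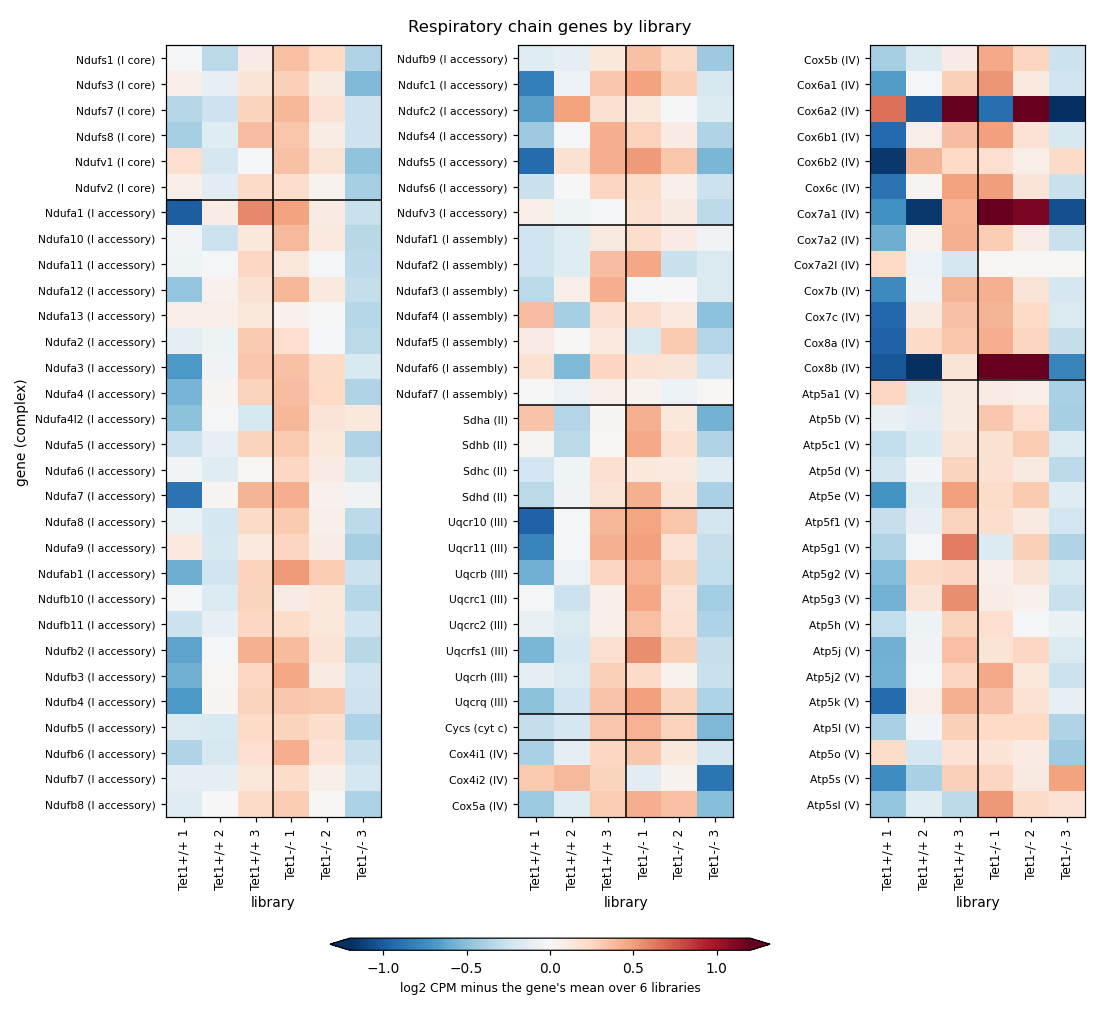
Log2 CPM of 90 of the 91 tested genes minus its mean over the 6 libraries, by complex (horizontal lines) and library, with red above and blue below the mean and colours capped at 1.2. The columns of Thy-Tet1+/+ 3 and Thy-Tet1-/- 1 are mostly red (medians 0.26 and 0.32), those of Thy-Tet1+/+ 1 and Thy-Tet1-/- 3 mostly blue (-0.32 and -0.28), and Cox6a2, Cox7a1 and Cox8b stand out.

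Every complex shared the difference between Thy-Tet1-/- 1 and 3. The median difference was 0.63 for complex I, 0.82 for complex II, 0.75 for complex III, 0.72 for complex IV and 0.37 for complex V. Leaving out Cox6a2, Cox7a1 and Cox8b, it held for 86 of 88 genes, with a median of 0.62. Among the members, the low level in Thy-Tet1+/+ 1 was unlike this difference in that it varied with transcript length. The 40 members whose longest transcript was under 1000 nt had a median of -0.57 there, and the 51 longer members -0.23. All genes tested went the same way, with medians of -0.38 under 1000 nt (526 genes) and 0.03 for longer ones, and Thy-Tet1+/+ 1 was also the shallowest library. In Thy-Tet1-/- 3 short and long members did not part in this way (-0.27 and -0.33). Of all genes tested under 1000 nt, Thy-Tet1+/+ 1 was lowest for 56.5% and Thy-Tet1+/+ 3 highest for 36.7%. These shares were 70% and 32.5% of the 40 short members. Of the longer genes they were 21.7% and 16.5%, against 43.1% and 27.5% of the longer members. Thy-Tet1-/- 1 exceeded Thy-Tet1-/- 3 for 66.3% of the short genes and 46.6% of the longer ones, so over all genes this difference also varied with length. Of the short and longer members the shares were 97.5% and 98%. Thy-Tet1+/+ 3 exceeded Thy-Tet1+/+ 2 for 70.7% of the short genes and 52.7% of the longer ones (short and longer members, 90% and 96.1%). With an offset for transcript length, an alternative added after the data had been seen, the median log2 fold change of the members between groups was 0.10.

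Other mitochondrial lists gave values beside this. The 16 genes of the citric acid cycle and pyruvate dehydrogenase had medians of -0.03, -0.32 and 0.04 for the 3 controls, against 0.48, 0.21 and -0.41 for those labelled Thy-Tet1-/-, where library 1 exceeded library 3 for all 16. Of 38 assembly factors outside the symbols above, 35 were higher in library 1. The 82 cytosolic ribosomal protein genes had 16 that were higher in Thy-Tet1-/- 1 than in Thy-Tet1-/- 3 (19.5%). Thy-Tet1-/- 1 also had the highest adipocyte sum (8 genes, 1723 CPM, against 183 to 580 CPM in the Thy-Tet1+/+ libraries), and Thy-Tet1-/- 3 the lowest muscle sum (19 CPM) and the highest T lymphocyte sum (391 CPM, against 2.43 to 105 CPM elsewhere). Their part in the pattern was not tested.

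**Figure D4:**
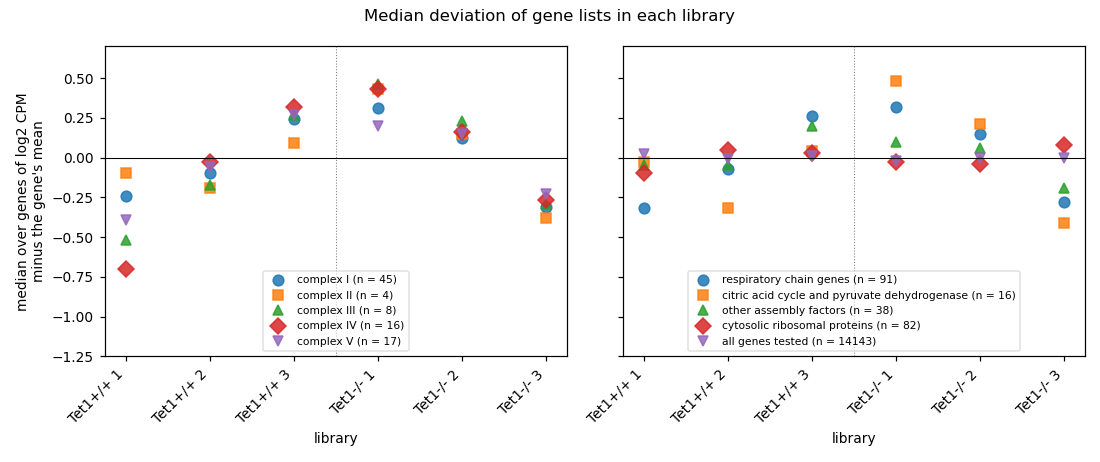
Median over genes of log2 CPM minus the gene's mean in each library, for complexes I to V (left) and for the 91 genes beside other lists (right), with n the number of genes. All 5 complexes are above 0 in Thy-Tet1-/- 1 and below 0 in Thy-Tet1-/- 3, as are the citric acid cycle genes (0.48 and -0.41), whereas ribosomal protein genes have medians of -0.03 and 0.08.

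Calls between the groups in the wider pathway stand beside 5.54% of all genes tested that were higher at the study's limits and 3.66% that were lower. Of 14 regulators of mitochondrial genes 1 was higher at the study's limits, Ppara, the fatty acid receptor, with 13.9, 7.48 and 11.1 CPM in the Thy-Tet1+/+ libraries and 34.3, 20.6 and 13 CPM in those labelled Thy-Tet1-/- (1.07 ± 0.39 SE, adjusted p = 0.214). The factors that bind the motifs above were not past the limits: Nrf1 had a log2 fold change of 0.04 ± 0.16 SE and Gabpa of 0.10 ± 0.13 SE, with exons that overlap those of Atp5j on the opposite strand by 397 bp. Neither were the coactivator Ppargc1a (-0.24 ± 0.16 SE), Esrra (-0.02 ± 0.21 SE) or Tfam (0.15 ± 0.16 SE). Of the 38 other assembly factors 1 was lower, Cox18, an insertase for complex IV, with 12.7, 15.4 and 14.4 CPM against 8.6, 8.29 and 9.34 CPM (-0.70 ± 0.17 SE, adjusted p = 0.116). All 3 libraries labelled Thy-Tet1-/- lay below the controls. Of the 16 citric acid cycle and pyruvate dehydrogenase genes 2 were higher. Pdhb, a subunit of pyruvate dehydrogenase, had 83.5, 85.5 and 94.1 against 173, 146 and 94.7 CPM (0.65 ± 0.22 SE, adjusted p = 0.188), and Idh3b, a subunit of isocitrate dehydrogenase, had 113, 114 and 142 against 249, 196 and 128 CPM (0.64 ± 0.25 SE, adjusted p = 0.238). Both were highest in Thy-Tet1-/- 1, like the respiratory chain genes. Of 9 carriers and uncouplers 1 was higher, Ucp1, and 0 were lower.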

How the data were processed

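The authors deposited unnormalized read counts per gene for 3 Thy-Tet1+/+ and 3 Thy-Tet1-/- thyroid libraries, grouped here by label. Their notes name the build mm10. The aligner and counting program are not given in the sources used here, and the protocol speaks of retinas. There were 0 further columns of per-library values. No source says if animals were pooled, and p-values measure the spread between these libraries.

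Counts were tested with edgeR 4.0.16 (R 4.3.3): filterByExpr (14143 genes), TMM, glmQLFit, glmQLFTest and Benjamini-Hochberg adjustment over all genes tested. Log2 CPM used a prior count of 2. Transcript lengths (the longest of each gene), exon overlaps and shared 50-base stretches came from GENCODE M21. Exact permutation tests of 3 against 3 cannot go below 0.1. Floors cover counting error only. The code was tested on simulated data.

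Members, lists and limits were chosen with earlier results of these data known. Named genes were the isoform families, complex II, Cycs, the highest gene per kilobase of each complex, and genes past a limit or without overlap. Other genes were named from the fixed pathway lists. Alternatives were RLE factors, library totals, epithelial scaling, DESeq2 1.42.0, limma-voom (3.58.1), other filters, tissue scores as covariates, a replicate block, a length offset and each library left out. The result for 1 gene is not reported here.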

Additional observations from a re-analysis of the deposited data

How the results depend on the processing

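Among the respiratory chain genes the count past the study's limits was 2 higher and 0 lower. It was most affected by scaling to 10 epithelial genes, which gave 14 higher genes and a summed level 1.38 times that of the controls. The median log2 fold change was then 0.51, beside 0.37 over all genes. This scaling thus raised genes in general, and the share of all genes past the limits under it is not given here. Limma-voom gave 0 higher genes, and the muscle score as a covariate, the replicate block and the replicate block with a length offset gave 1 each (Cox8b, Atp5sl and Atp5sl). With the brown adipocyte score there were again 2, with Atp5s in place of Cox8b. DESeq2 gave 1 gene with an adjusted p under 0.05, without a share of all genes to set beside it. Leaving out each library in turn gave 0 to 3 higher genes, 0 to 1 lower genes (Cox6a2, without Thy-Tet1-/- 2) and a median from -0.05 to 0.27. The count was 0 without Thy-Tet1+/+ 1 or without Thy-Tet1-/- 1, 1 without Thy-Tet1+/+ 2 or Thy-Tet1-/- 2, and 3 without Thy-Tet1+/+ 3 or Thy-Tet1-/- 3. Cox6a2 changed sign to 0.02 under epithelial scaling and 0.66 with the muscle score, and ran from -2.13 to 0.41 with each library left out. Using the median instead of the longest transcript moved the median level of the 91 genes from 72.8 to 132 CPM per kb. It also changed the highest gene per kilobase in several groups. Among these changes were Ndufb8 in place of Ndufa1, Uqcrc1 in place of Uqcrh and, for the assembly factors, Ndufaf7 in place of Ndufaf3. With the median length the group means of the Cox6a2, Cox7a1 and Cox8b shares moved by less than 1 SD, as did those of Cox4i2, Atp5g2 and Atp5g3. Those of Ndufa4l2 (1.05 and 1.3% for Thy-Tet1+/+ and Thy-Tet1-/-), Cox6b2 (2.28 and 2.34%) and Atp5g1 (5.82 and 5.49%) moved by more. Same-numbered libraries had correlations of -0.167, -0.372 and -0.193 between their deviations. With 3 libraries per group these values cannot show if same-numbered samples shared more than a number. With the block 1 gene was higher (2 without) and the median was 0.12. The cause of these shifts was not tested. As to depth, 81 of the 91 genes had over 10 CPM in every library, and Thy-Tet1+/+ 1, the shallowest, had the lowest value for 50 of the 91.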
